A study of Mus musculus with 9 samples.

Results

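The genes described here are 60 mouse genes that act in mitosis: kinetochore proteins, checkpoint proteins, mitotic kinases and cyclins, kinesins, condensin subunits and cytokinesis proteins, together with the transcription factor gene *Foxm1* and the proliferation marker *Mki67*. They were chosen by name among 22068 genes in the count table, and all 60 were found there, on 17 chromosomes, 2 of them on the X chromosome. The libraries were made from primary mouse embryonic fibroblasts (MEFs) of strain C57Bl/6 at passage 2. The cells were electroporated with a V5-tagged construct carrying human *CRX* (eutherian CRX) or opossum *CRX* (metatherian CRX), or with a control construct that brought puromycin resistance and no homeobox gene. *CRX* encodes a homeobox transcription factor of photoreceptor cells, which fibroblasts do not normally make. All 3 conditions carried the resistance gene and went through 5 days of puromycin selection, so that the control shares electroporation, selection and plasmid with the CRX groups. The labels place 48 h of recovery after selection, whereas the study's methods place that recovery before selection and an overnight culture after it, so the time from selection to harvest is uncertain. RNA was harvested in triplicate in each condition. The sources do not say that the 3 libraries of a condition come from separate cultures, and p-values then measure only the spread between these libraries, which may be technical.

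Mitosis depends on a set of proteins that dividing cells make shortly before they need them. Kinetochores assemble on centromeres and bind the ends of spindle microtubules, while the spindle assembly checkpoint holds back the anaphase-promoting complex until every chromosome is attached. Cyclin-dependent, Polo-like and Aurora kinases drive entry into mitosis, kinesins and spindle proteins build and move the spindle, condensins compact the chromosomes, and the central spindle directs cytokinesis. Cells that have left the cycle switch most of these genes off together, and FOXM1 and MYB-MuvB complexes switch them on again late in the cycle. In cultured fibroblasts their summed RNA is therefore a common readout of how much a culture divides.

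The 9 libraries held 54145701 to 94699657 counts on genes, of which the 60 genes took 24156 to 84031. That was 0.0700%, 0.0752% and 0.119% of the counts in the 3 control libraries, 0.0358%, 0.0359% and 0.0535% with eutherian CRX, and 0.0522%, 0.0442% and 0.0803% with metatherian CRX. The lowest count of any of the 60 genes in any library was 20. Counts on the mouse *Crx* gene, which may take reads of the human construct, were 627, 995 and 313 with eutherian CRX, 0 in every control library (which allows up to 3 counts), and 4, 0 and 0 with metatherian CRX. The defining fibroblast genes (collagens, *Fn1*, *Vim* and others, 12 in all) were abundant in every library. Their summed level was lower in eutherian CRX replicate 3 (19310 CPM) and metatherian CRX replicate 3 (24345 CPM) than in the other 7 libraries, which lay between 41828 and 54803 CPM. That sum held much *Fn1*, which was at 26110 and 28448 CPM in metatherian CRX replicates 1 and 2 and between 10810 and 18131 CPM in the other libraries. Gene by gene, the median of the 12 relative to the control mean in log2 CPM was -0.063, -0.046 and -1.57 with eutherian CRX and -0.70, -0.99 and -1.16 with metatherian CRX, so this median was below that of every control library in all 3 metatherian CRX libraries. The median log2 fold change of the 12 was -0.39 with eutherian and -1.18 with metatherian CRX, with 0 called in either, and *Thy1* was called lower in the average of both (-1.22, adjusted p = 0.041 in edgeR). The part of these differences in the levels of the mitosis genes was not tested. CPM are the usual depth-scaled counts, here after scaling each library with edgeR's TMM factors.

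The mitosis genes were lower with eutherian CRX than in control, and lay in between with metatherian CRX. For all 60 genes, the median difference of group means in log2 CPM was -1.46 for eutherian CRX minus control and -0.68 for metatherian CRX minus control, while the median over the 14599 genes that passed edgeR's filterByExpr was -0.016 and -0.034. Within the 3 replicate numbers the first median was -1.28, -1.43 and -1.45 (SD 0.093, n = 3), and the second -0.44, -0.86 and -0.70 (SD 0.21, n = 3). The 2 ranges do not overlap. They rest on libraries matched by replicate number, which no source says are pairs, and share the 3 control libraries. Taken singly, against the control mean, the libraries of the orthologues did overlap. The median of the 60 genes was -0.85 in eutherian CRX replicate 3 and -1.08 in metatherian CRX replicate 2. In bulk RNA, fewer dividing cells and less mitotic RNA in each cell cannot be told apart.

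Replicate 3 had the highest level of these genes in every condition. Relative to the control mean, the median of the 60 genes was -0.36, -0.17 and 0.45 in control replicates 1 to 3. It was -1.66, -1.73 and -0.85 with eutherian CRX, and -0.81, -1.08 and -0.24 with metatherian CRX. Eutherian CRX replicate 3 therefore stood closer to metatherian CRX replicates 1 and 2 than to its own replicates. Without that library the median difference between eutherian CRX and control was -1.72, and without control replicate 3 it was -1.16.

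**Figure D1:**
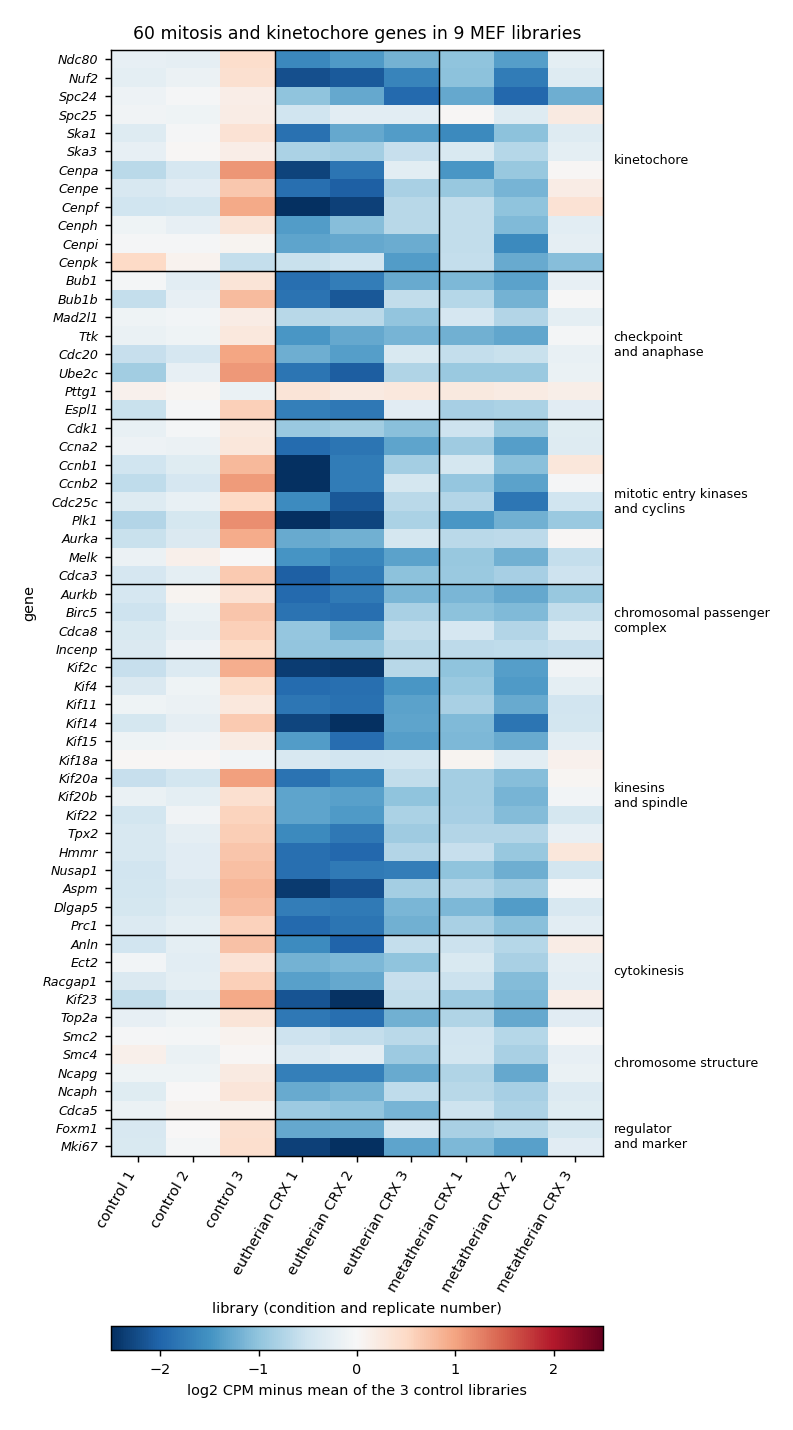
Log2 CPM minus the mean of the 3 control libraries, for each of the 60 genes (vertical, grouped by role) in each of the 9 libraries (horizontal, by condition and replicate number). Blue is below and red above the control mean. Eutherian CRX replicates 1 and 2 are the darkest blue columns, with medians of -1.66 and -1.73, and the row of *Pttg1* stays pale throughout.

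A single edgeR model of the 9 libraries, in which the replicate number was a blocking term, gave the quasi-likelihood test of every comparison. Genes with a Benjamini-Hochberg adjusted p under 0.05, over all genes tested, count as called. All 60 genes passed filterByExpr, and each of them exceeded its minimum of 0.141 CPM in all 9 libraries. In the fit of these 14599 genes, 33 of the 60 were called lower with eutherian CRX and 0 higher, where 0.603% of all genes tested were called lower. Of the 60, 59 had a log2 fold change below 0. A stricter filter took up the study's FPKM threshold (FPKM are counts per kilobase of exon, scaled for library size), computed here from the counts and applied as a mean above 2 in at least 1 condition. It left 10100 genes and 46 of the 60. In that stricter fit 26 of the 46 were called lower and 0 higher, against 0.584% of all genes tested. Since 16 of the 46 passed the FPKM threshold only through control, the counts over all 60 are given first. Single values below are from the stricter fit, and from the fit of all 60 for the 14 genes that the threshold left out (*Ska1*, *Cenpe*, *Cenpf*, *Cenpi*, *Cenpk*, *Ttk*, *Espl1*, *Ccnb1*, *Cdc25c*, *Kif4*, *Kif14*, *Kif15*, *Kif18a* and *Aspm*).

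The calls depended on the block and on single libraries. Without the block 0 of the 46 genes were called (smallest adjusted p = 0.073 from edgeR), although 43 had an unadjusted p under 0.05 and the median log2 fold change was -1.44 against -1.42 with the block. In the 9 fits without 1 library, 0 genes were called in 7. The number was 9 when metatherian CRX replicate 2 was left out, among 16 genes called in all, and 32 when its replicate 3 was, among 114. The median log2 fold change of the 46 genes in these blocked fits lay between -1.53 and -1.36. Over all 60 genes the same fits called 0 in 7, 20 without metatherian CRX replicate 2 and 40 without its replicate 3. The other tests run called more, with 43 of the 46 from DESeq2, among 333 genes called in either direction, and 45 from limma voom, among 789. The stricter edgeR fit with the block called 61 genes in all. Without regard to any fit, all 3 eutherian CRX libraries were below all 3 control libraries in 51 of the 60 genes, which was so in 8.94% of the 14599 genes.

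**Figure D2:**
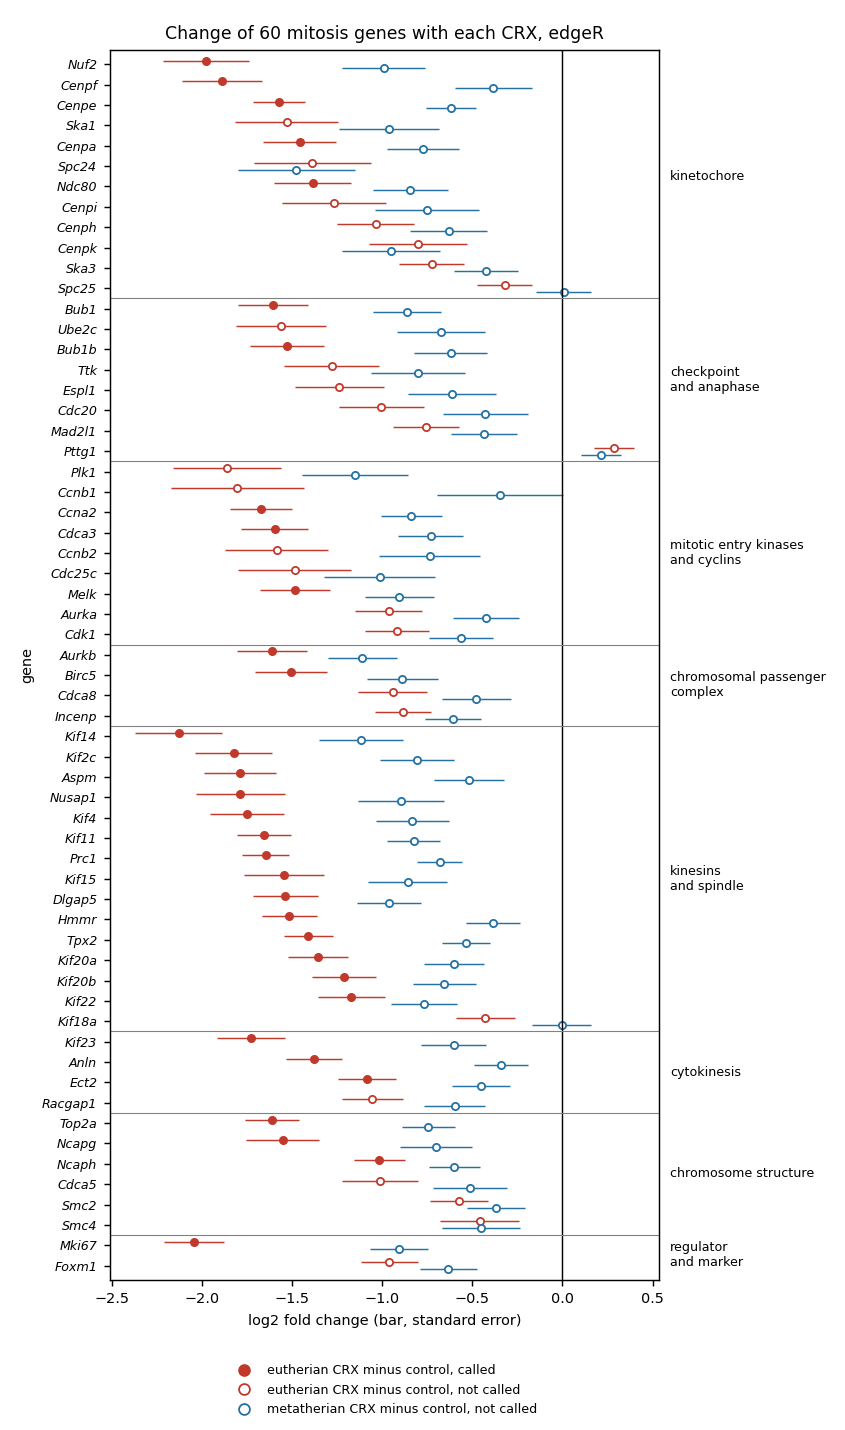
Log2 fold change (horizontal, edgeR, fit of all 60 genes) of eutherian CRX (red) and metatherian CRX (blue) against control for each gene (vertical, grouped by role), with bars for the standard error. Filled circles mark an adjusted p under 0.05. The 33 filled circles are all red and all left of 0, and *Pttg1* is the gene whose circles both lie right of 0.

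The kinetochore group has 12 genes, and 5 of them were called lower with eutherian CRX in the fit of all 60 (*Nuf2*, *Ndc80*, *Cenpa*, *Cenpe* and *Cenpf*). *Nuf2* and *Ndc80* encode a dimer of the outer kinetochore complex that grips microtubules. *Nuf2* (chr1:169497934-169531464, GRCm38) had 8.03, 8.51 and 12.4 CPM in the control libraries, 2.04, 2.18 and 3.01 CPM with eutherian CRX, and 4.61, 2.80 and 7.60 CPM with metatherian CRX. The libraries of neither CRX condition overlapped control. *Nuf2* fell by 2.00 on the log2 scale with eutherian CRX (adjusted p = 0.032 in edgeR, standard error 0.23), and its log2 fold change with metatherian CRX was -1.02 (standard error 0.23, adjusted p = 0.10). *Ndc80* (chr17:71496100-71526857) had 5.64, 5.58 and 8.82 CPM in control, 2.12, 2.42 and 2.88 CPM with eutherian CRX and 3.25, 2.49 and 5.51 CPM with metatherian CRX, again with no overlap of control and either CRX. It was called lower with eutherian CRX, close to the threshold (log2 fold change -1.404, adjusted p = 0.047 in edgeR, standard error 0.21).

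The other genes of the same complex had unlike values. *Spc24* (chr9:21755442-21760452) had 3.08, 3.32 and 3.81 CPM in control, 1.66, 1.37 and 0.857 CPM with eutherian CRX, and 1.38, 0.844 and 1.45 CPM with metatherian CRX. Both CRX groups were below control in every library, and *Spc24* had the lowest log2 fold change of the 46 genes with metatherian CRX, -1.50, beside -1.41 with eutherian CRX (adjusted p = 0.097 and 0.19, edgeR). *Spc25* (chr2:69193895-69206215), its partner, had the highest FPKM of the group in control, 9.11, and its groups lay close together, with 14.3, 14.1 and 17.2 CPM in control, 10.7, 12.6 and 12.6 CPM with eutherian CRX and 15.5, 12.1 and 17.7 CPM with metatherian CRX. The log2 fold changes of *Spc25* were -0.34 and -0.02 (standard error 0.15 in both, adjusted p = 0.60 and 0.96).

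*Cenpa* encodes the histone variant that marks the centromere. It had 2.97, 3.54 and 10.2 CPM in control, 0.933, 1.31 and 3.96 CPM with eutherian CRX and 1.72, 2.44 and 4.84 CPM with metatherian CRX. Replicate 3 was the highest library of each condition, so that the groups overlap although *Cenpa* was lower than the control of the same replicate number in all 3 cases, and it was called lower with eutherian CRX (log2 fold change -1.48, adjusted p = 0.039 in edgeR, standard error 0.20). *Cenpe*, a kinetochore motor, and *Cenpf*, an outer kinetochore protein, were called lower in the fit of all 60, with log2 fold changes of -1.57 and -1.89 (adjusted p = 0.025 in both, edgeR). *Cenpf* also had the largest difference between the orthologues of all 60, 1.502 higher with metatherian than with eutherian CRX on the log2 scale (adjusted p = 0.23, edgeR), with 7.74, 7.93 and 21.0 CPM in control, 1.60, 2.15 and 6.73 CPM with eutherian CRX, and 7.06, 5.43 and 14.01 CPM with metatherian CRX. The inner kinetochore genes *Cenph*, *Cenpi* and *Cenpk* and the microtubule-binding genes *Ska1* and *Ska3* were not called, with log2 fold changes between -1.53 (*Ska1*) and -0.74 (*Ska3*) for eutherian CRX.

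Of 8 checkpoint and anaphase genes, 2 were called lower with eutherian CRX, the checkpoint kinase gene *Bub1* and its relative *Bub1b*. *Bub1* (chr2:127800200-127831876) had 9.62, 8.31 and 12.5 CPM in control, 2.70, 3.01 and 4.19 CPM with eutherian CRX, and 4.59, 3.94 and 8.66 CPM with metatherian CRX. The eutherian CRX libraries lay wholly below control, and the highest with metatherian CRX overlapped its lower end. *Bub1* fell by 1.63 on the log2 scale with eutherian CRX (adjusted p = 0.031 in edgeR, standard error 0.19) and *Bub1b* by 1.55 (adjusted p = 0.039 in edgeR, standard error 0.21). *Mad2l1*, whose protein makes the inhibitor that the checkpoint sends out, had a log2 fold change of -0.78 (adjusted p = 0.20). *Cdc20* and *Ube2c*, which activate and serve the anaphase-promoting complex, had -1.02 and -1.58 (adjusted p = 0.21 and 0.066).

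*Pttg1*, which encodes securin, the inhibitor of separase, was the 1 gene of the 60 above 0 in both comparisons with control by more than its standard error. It (chr11:43420248-43426248) had 22.5, 21.4 and 18.6 CPM in control, 25.8, 24.2 and 25.01 CPM with eutherian CRX, and 24.5, 23.8 and 23.0 CPM with metatherian CRX. Every CRX library was above every control library, and neither difference passed the test (a log2 fold change of 0.27 with adjusted p = 0.54 for eutherian and of 0.19 with adjusted p = 0.35 for metatherian CRX, edgeR, both with a standard error of 0.10). *Espl1*, which encodes separase itself, had log2 fold changes of -1.24 and -0.61 (adjusted p = 0.11 and 0.22). At 11.3 FPKM in control, *Pttg1* was the most abundant of these 8 genes.

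Among 9 genes for mitotic entry, *Ccna2*, *Melk* and *Cdca3* were called lower with eutherian CRX. *Ccna2* (chr3:36564865-36571996) encodes cyclin A2, which acts from S phase to early mitosis. It had 18.3, 18.03 and 24.5 CPM in control, 5.28, 5.64 and 8.07 CPM with eutherian CRX, and 10.8, 7.66 and 16.0 CPM with metatherian CRX, with no overlap of either CRX condition and control. *Ccna2* fell by 1.69 on the log2 scale with eutherian CRX (adjusted p = 0.027 in edgeR, standard error 0.17). *Melk*, a kinase gene, and *Cdca3*, which encodes a trigger of mitotic entry, were separated in all 3 conditions, in the order control, metatherian and eutherian CRX. *Melk* had 7.27 to 8.73 CPM in control, 3.46 to 5.26 CPM with metatherian and 2.55 to 3.15 CPM with eutherian CRX. Their log2 fold changes with eutherian CRX were -1.50 and -1.62 (adjusted p = 0.034 and 0.031, edgeR).

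The central mitotic kinase gene *Cdk1* (chr10:69336635-69352912) was the most abundant of the group, at 11.9 FPKM in control, and its change was among the smaller ones. It had 30.8, 33.9 and 41.7 CPM in control, 18.6, 19.3 and 17.1 CPM with eutherian CRX, and 24.6, 18.2 and 28.4 CPM with metatherian CRX. Neither CRX condition overlapped control, and neither difference was called (-0.94 on the log2 scale with adjusted p = 0.098 for eutherian and -0.59 with adjusted p = 0.15 for metatherian CRX, edgeR). The mitotic B cyclins *Ccnb1* and *Ccnb2* and the Polo-like kinase *Plk1* had larger differences and a larger spread. *Plk1* had 4.62, 5.59 and 17.2 CPM in control, 1.34, 1.54 and 4.39 CPM with eutherian CRX and 2.75, 3.31 and 3.998 CPM with metatherian CRX. The third control library was more than the sum of the other two, and the log2 fold changes of *Plk1*, -1.88 and -1.17, were not called (standard error 0.31 in both, adjusted p = 0.067 and 0.12, edgeR). For *Ccnb1* the log2 fold changes were -1.80 and -0.35 (standard errors 0.37 and 0.35, fit of all 60), the least certain values of the group. With a library left out they ran from -2.10 to -1.45 with eutherian and from -0.76 to -0.095 with metatherian CRX. *Aurka*, the kinase gene of spindle poles, had -0.98 and -0.45, and *Cdc25c*, the phosphatase gene that activates *Cdk1*, had -1.49 and -1.01, none of them called.

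The chromosomal passenger complex corrects faulty attachments and later sits on the central spindle. Its kinase gene *Aurkb* and its subunit gene *Birc5* (survivin) were called lower with eutherian CRX, and *Cdca8* (borealin) and *Incenp*, the scaffold, were not. *Aurkb* (chr11:69045625-69051664) had 6.25, 8.79 and 10.9 CPM in control, 2.17, 2.46 and 3.78 CPM with eutherian CRX, and 3.78, 3.43 and 4.35 CPM with metatherian CRX. Here the CRX conditions lay close together and both apart from control. *Aurkb* fell by 1.63 on the log2 scale with eutherian CRX (adjusted p = 0.032 in edgeR, standard error 0.19), and with metatherian CRX it had a log2 fold change of -1.13 and, with *Kif11*, *Prc1* and *Mki67*, the smallest adjusted p of the 46 genes, 0.072. *Birc5* had log2 fold changes of -1.52 (adjusted p = 0.039, edgeR) and -0.91. *Incenp* had the highest FPKM of the 4, 7.40 in control, and log2 fold changes of -0.90 with eutherian CRX (adjusted p = 0.082), the smallest change of the 4, and -0.63 with metatherian CRX, although its 3 conditions did not overlap, with 19.2, 22.7 and 34.3 CPM in control, 12.4, 12.4 and 15.3 CPM with eutherian CRX and 15.6, 15.8 and 16.5 CPM with metatherian CRX.

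The kinesin and spindle group held the largest number of called genes. Of 15 genes, 14 were called lower with eutherian CRX in the fit of all 60, with a median log2 fold change of -1.55, and the exception was *Kif18a*. In the stricter fit 9 of 10 were called. *Tpx2* (chr2:152847964-152895321), whose protein activates Aurora A on the spindle, had the highest FPKM of the group in control, 8.15. It had 26.5, 30.1 and 54.1 CPM in control, 11.6, 10.1 and 19.0 CPM with eutherian CRX, and 21.0, 21.1 and 30.6 CPM with metatherian CRX. Every eutherian CRX library was below every library of the other two conditions, and *Tpx2* fell by 1.43 on the log2 scale (adjusted p = 0.027 in edgeR, standard error 0.13).

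*Kif11* (chr19:37376403-37421859), the motor that pushes spindle poles apart, had 15.3, 14.9 and 19.9 CPM in control, 4.69, 4.54 and 6.57 CPM with eutherian CRX, and 9.45, 6.86 and 11.9 CPM with metatherian CRX. The 3 conditions did not overlap, and *Kif11* fell by 1.67 with eutherian CRX on the log2 scale (adjusted p = 0.027 in edgeR, standard error 0.15). *Prc1* (chr7:80293786-80316259), which bundles the microtubules of the central spindle, had 22.9, 24.3 and 43.1 CPM in control, 7.48, 8.06 and 12.5 CPM with eutherian CRX, and 16.4, 13.99 and 24.1 CPM with metatherian CRX. It fell by 1.67 on the log2 scale and had the smallest standard error of the genes called in this comparison, 0.12 (adjusted p = 0.027 from edgeR). *Kif14*, a motor of cytokinesis, had the lowest log2 fold change of all 60, -2.13 (standard error 0.24, adjusted p = 0.025 from edgeR, fit of all 60), from 3.34, 3.87 and 7.10 CPM in control to 0.895, 0.672 and 1.78 CPM with eutherian CRX. It also had the lowest FPKM of the 60 genes in control, 0.450.

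The other called genes of the group were *Kif2c*, *Kif4*, *Kif15*, *Kif20a*, *Kif20b*, *Kif22*, *Hmmr*, *Nusap1*, *Aspm* and *Dlgap5*, with log2 fold changes in the fit of all 60 between -1.82 (*Kif2c*) and -1.17 (*Kif22*). *Kif22*, a chromosome-bound motor gene, was called in that fit only, with an adjusted p of 0.053 in the stricter one. *Kif18a*, which shortens microtubules at the kinetochore, had 6.60, 6.60 and 6.20 CPM in control, 4.90, 4.64 and 4.71 CPM with eutherian CRX, and 6.79, 5.39 and 6.97 CPM with metatherian CRX. It was below control and below metatherian CRX in every eutherian CRX library, by a log2 fold change of -0.43 against control that was not called (adjusted p = 0.46), and it had -0.0034 with metatherian CRX.

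All 4 cytokinesis genes had lower means with both orthologues, and *Kif23*, *Anln* and *Ect2* were called with eutherian CRX. *Kif23* and *Racgap1* encode the centralspindlin complex, *Ect2* the exchange factor it recruits, and *Anln* a scaffold of the contractile ring. *Kif23* (chr9:61917277-61946812) had 7.62, 9.15 and 22.6 CPM in control, 2.60, 2.09 and 7.62 CPM with eutherian CRX, and 6.20, 5.33 and 13.01 CPM with metatherian CRX. Replicate 3 exceeded the sum of the other libraries of its condition in each group, and *Kif23* fell by 1.74 on the log2 scale in the blocked fit (adjusted p = 0.031 in edgeR, standard error 0.19). *Anln* (chr9:22331214-22389696) fell by 1.395 (adjusted p = 0.031 in edgeR, standard error 0.16), with 27.5, 32.2 and 63.4 CPM in control and 12.8, 9.52 and 25.3 CPM with eutherian CRX. With metatherian CRX *Anln* had 26.4, 23.2 and 43.4 CPM, a log2 fold change of -0.36 (adjusted p = 0.26), 1 of the 3 smallest decreases among the 46 genes in that comparison. *Racgap1*, the most abundant of the 4 at 6.92 FPKM in control, had -1.07 and -0.62 (adjusted p = 0.060 and 0.13).

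Of 6 chromosome structure genes, *Top2a*, *Ncapg* and *Ncaph* were called lower with eutherian CRX. *Top2a* (chr11:98992947-99024206), the topoisomerase that untangles sister chromatids, had 55.0, 59.3 and 79.3 CPM in control, 18.5, 17.2 and 27.8 CPM with eutherian CRX, and 38.0, 26.2 and 52.3 CPM with metatherian CRX. Neither CRX condition overlapped control, and *Top2a* fell by 1.63 with eutherian CRX on the log2 scale (adjusted p = 0.027 in edgeR, standard error 0.14). *Ncapg* and *Ncaph*, subunits found only in condensin I, were also called, with log2 fold changes of -1.57 and -1.03 (adjusted p = 0.034 and 0.039, edgeR). The ATPase subunits *Smc2* and *Smc4*, which condensin I shares with condensin II, were not called, and neither was *Cdca5*, which encodes the cohesin protector sororin (log2 fold change -1.03 with eutherian CRX, adjusted p = 0.12 in edgeR). *Smc4* (chr3:69004972-69034623), with 13.96 FPKM the most abundant of all 60 in control, had 70.2, 57.1 and 65.1 CPM in control, 50.5, 53.1 and 34.0 CPM with eutherian CRX and 46.5, 36.6 and 55.1 CPM with metatherian CRX. Both comparisons gave *Smc4* a log2 fold change of -0.48 (adjusted p = 0.61 and 0.29 in edgeR, with a standard error of 0.22), and *Smc2* had -0.59 and -0.39. With a library left out, *Smc4* ran from -0.73 to -0.22 with eutherian and from -0.73 to -0.30 with metatherian CRX.

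*Mki67* (chr7:135689782-135716408), which encodes the Ki-67 protein that coats mitotic chromosomes and is used to count cycling cells, had the lowest log2 fold change of the 46 genes with eutherian CRX. Its libraries had 37.6, 47.8 and 66.1 CPM in control, 9.67, 8.75 and 19.6 CPM with eutherian CRX, and 22.7, 19.2 and 40.2 CPM with metatherian CRX. The eutherian CRX libraries lay below all others but for metatherian CRX replicate 2, which eutherian CRX replicate 3 slightly exceeded. *Mki67* fell by 2.06 on the log2 scale with eutherian CRX (adjusted p = 0.027 in edgeR, standard error 0.16), to 0.240 of its level in control. *Foxm1* (chr6:128362994-128375886) had 16.1, 21.5 and 28.2 CPM in control, 8.75, 8.88 and 16.3 CPM with eutherian CRX, and 12.2, 13.02 and 15.7 CPM with metatherian CRX. The metatherian CRX libraries were all below control, and eutherian CRX replicate 3 overlapped it. Its log2 fold changes were -0.98 and -0.65, and neither was called (adjusted p = 0.066 and 0.11, edgeR).

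**Figure D3:**
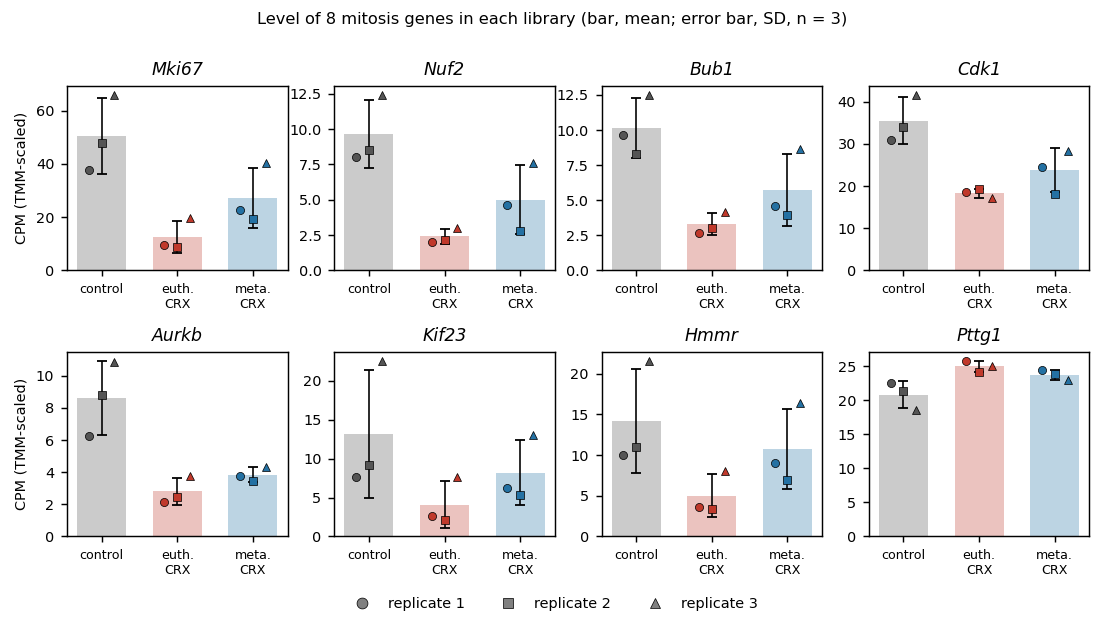
CPM (vertical, TMM-scaled) of 8 genes in each library, with bars for the mean and error bars for the SD of 3 libraries. Markers tell the replicate numbers apart. Of the genes shown, 7 have their lowest mean with eutherian CRX, *Aurkb* has both CRX groups near 3 to 4 CPM, and *Pttg1* has its lowest mean in control.

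With metatherian CRX most of these genes had a lower mean than in control, at the median by less than with eutherian CRX, and edgeR called none of them. The 3 exceptions were *Spc24*, *Cenpk* and *Pttg1*, whose log2 fold change was the lower one with metatherian CRX. Of the 46 genes tested in the stricter fit, 0 were called by edgeR, where 0.0297% of all genes tested were called lower. At an unadjusted p under 0.05, 50 of the 60 were lower and 0 higher in the fit of all 60, where the share of all genes was not computed. In the stricter fit 41 of the 46 were lower and 0 higher, against 10.5% of all genes tested that were lower. That count was favoured by the filter, since 16 of the 46 passed the FPKM threshold only through control. Without the block 23 of the 46 were below that p. Of all 60, 58 had a log2 fold change below 0. DESeq2 called 29 of the 46, among 1004 genes called in either direction, and limma voom 40, among 4236. Calls by edgeR were 20 when eutherian CRX replicate 3 was left out, among 888 genes. They were 9 when metatherian CRX replicate 3 was left out, among 484 genes. With only the 6 libraries compared, edgeR called 398 genes and 0 of the 46. Calls in these fits were thus spread over many other genes. All 3 metatherian CRX libraries were below all 3 control libraries in 26 of the 60 genes, beside 13.7% of the 14599 genes. The comparisons share their control libraries and are not independent of each other.

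Averaged over both orthologues, 35 of the 60 genes were called lower than control and 0 higher in the fit of all 60, where 1.01% of all genes tested were called lower. The stricter fit called 26 of 46 lower, beside 0.881%, and without the block it called 0 (smallest adjusted p = 0.062 from edgeR, 42 genes at an unadjusted p under 0.05). With 1 library left out it called 0 in 7 of the 9 fits, 29 when eutherian CRX replicate 3 was the one left out, and 32 when metatherian CRX replicate 3 was. The fit of all 60 called 0 in 6 of the 9 fits, 10 without eutherian CRX replicate 2, 39 without its replicate 3 and 46 when metatherian CRX replicate 3 was left out. The largest average decreases in the stricter fit were in *Plk1* (-1.53, adjusted p = 0.052), *Nuf2* (-1.51, adjusted p = 0.028), *Mki67* (-1.50, adjusted p = 0.025) and *Spc24* (-1.45, adjusted p = 0.067).

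Set directly against each other, nearly all of these genes were higher with metatherian CRX, and none at the adjusted threshold. The median difference of metatherian minus eutherian CRX over the 60 genes was 0.61 in log2 CPM, and 0.80, 0.46 and 0.73 within the replicate numbers (SD 0.18, n = 3), beside -0.0063 over the 14599 genes. In the stricter fit 44 of 46 genes were higher with metatherian CRX, 31 of them at an unadjusted p under 0.05, where 7.41% of all genes tested were. That number was 14 without the block and 20 without metatherian CRX replicate 1. At the adjusted threshold edgeR called 0 of the 46 (smallest adjusted p = 0.23) and 0% of all genes tested, DESeq2 called 18 and limma voom 37. With eutherian CRX replicate 3 left out edgeR called 7, and likewise 7 with metatherian CRX replicate 3 left out. The share of all genes that DESeq2, limma voom and these last fits called is not given here. Their counts are therefore no measure of what is particular to the mitosis genes. The direct test therefore did not show, gene by gene, that the orthologues differ, while the median was above 0 in each of the 3 replicate numbers.

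The largest differences in the stricter fit were in *Mki67* (1.13, standard error 0.16), *Hmmr* (1.13, standard error 0.15) and *Kif23* (1.12, standard error 0.19), each with an adjusted p of 0.23 or 0.24 from edgeR. *Hmmr*, whose protein binds microtubules and hyaluronan, had 10.1, 10.9 and 21.6 CPM in control, 3.59, 3.40 and 8.05 CPM with eutherian CRX and 8.998, 6.94 and 16.3 CPM with metatherian CRX. In each number its metatherian CRX library stood nearer to control than to eutherian CRX on the log2 scale. At the other end were *Spc24* (-0.09), *Pttg1* (-0.08) and *Smc4* (0.0031), for which the orthologues gave nearly the same value, with standard errors of 0.32, 0.10 and 0.22. The order control above metatherian above eutherian CRX held within every replicate number in 45 of the 60 genes, and in 1.77% of the 14599 genes. All 3 eutherian CRX libraries were below all 3 metatherian CRX libraries in 12 of the 60 genes, beside 6.13% of the 14599.

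Other genes of the same processes, from lists made for comparison, did not all move with these 60. Of 69 further mitosis genes, 13 were called lower with eutherian CRX in the fit of the 14599 genes (among them *Casc5*, *Cdca2*, *Cit*, *Ckap2l*, *Knstrn*, *Ncapd2*, *Sgol2a* and *Spag5*) and 0 higher, with a median log2 fold change of -0.71 for eutherian and -0.47 for metatherian CRX. Without the block edgeR called 0 of the 14599 genes with eutherian CRX or in the average of both orthologues, so every edgeR call in these lists depended on it. *Knstrn*, which encodes a kinetochore and spindle adaptor, had 6.94 ± 4.08 CPM in control (SD, n = 3) and 1.89 ± 1.07 CPM with eutherian CRX (SD, n = 3), and *Zwint*, a kinetochore gene, had a log2 fold change of 0.48 with metatherian CRX (adjusted p = 0.10, edgeR). The 15 subunits and activators of the anaphase-promoting complex, whose targets include cyclin B and securin, had medians of 0.024 and -0.071 and 0 calls. Cohesin subunits and loaders (12 genes) had medians of 0.027 and 0.11 and 0 calls, and the lowest of them was the S phase acetyltransferase gene *Esco2*, at -1.41 with eutherian CRX (adjusted p = 0.094, edgeR). Both lists thus had medians near that of all genes.

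A list of cell cycle regulators also had medians near 0. It does not cover *Foxm1*, counted among the 60, whose log2 fold changes were -0.98 and -0.65. Of 22 genes for MuvB subunits, MYB and E2F factors and pocket proteins, *E2f7*, an E2F repressor, was called lower with eutherian CRX (log2 fold change -1.58, adjusted p = 0.037, edgeR). *Mybl2*, which encodes the B-MYB activator, was called lower in the average of both orthologues (-1.32, adjusted p = 0.026, edgeR). The other 20 were not called in any comparison, and the medians of the list were -0.047 for eutherian and -0.0073 for metatherian CRX. Of 50 genes for DNA replication and S phase, the ligase gene *Lig1* and the thymidine kinase gene *Tk1* were called lower with eutherian CRX and 0 with metatherian CRX, and the medians of the list were -0.38 and -0.47. *Chaf1b*, *Mcm3*, *Mcm5*, *Pole* and *Uhrf1* joined them in the average of both. In the S phase list the median difference between the orthologues was -0.020, whereas it was 0.62 for the 60 mitosis genes in the same fit, and no test of the 2 lists against each other was made.

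**Figure D4:**
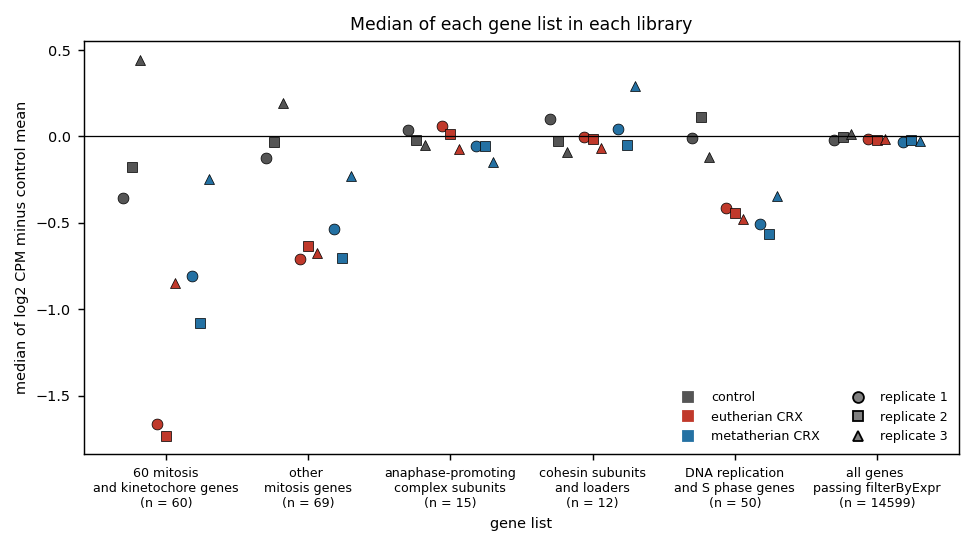
Median over the genes of each list (horizontal) of log2 CPM minus the control mean (vertical) in each library. Colours are conditions and marker shapes are replicate numbers. The 60 mitosis genes reach -1.73 in eutherian CRX replicate 2, the S phase genes lie between -0.56 and -0.34 in all 6 CRX libraries, and the anaphase-promoting complex, cohesin and all genes passing filterByExpr stay within 0.30 of 0.

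Markers of other cells also differed between the libraries. The 15 macrophage and leukocyte genes in the table summed to 57.8, 28.7 and 17.1 CPM in control, 31.7, 27.2 and 9.18 CPM with eutherian CRX, and 7.001, 9.77 and 15.1 CPM with metatherian CRX, and 13 of the 15 had a lower mean with eutherian and 14 with metatherian CRX. In this list metatherian CRX, not eutherian CRX, was farthest from control. The library highest in mitosis genes, replicate 3, was the lowest in these markers within control and within eutherian CRX, and the highest within metatherian CRX. Endothelial markers summed to between 11.4 and 18.7 CPM in all libraries, with 5 of 7 genes under 1 CPM throughout. Epithelial markers summed to 13.2 CPM in eutherian CRX replicate 3 and 9.37 CPM in metatherian CRX replicate 3, and to at most 3.75 CPM elsewhere. Skeletal muscle markers summed to between 5.19 and 19.0 CPM, most of it *Des* (18.6 CPM in eutherian CRX replicate 3). Neural markers summed to between 127 and 174 CPM. The neural sum hid opposite differences in eutherian CRX replicate 3, where *Nes* was at 106 CPM against 17.2 and 13.4 CPM in replicates 1 and 2, and *Map2* at 22.2 against 146 and 150.3 CPM. With metatherian CRX *Nes* was at 59.5, 60.45 and 104 CPM, and in control at 22.3, 32.7 and 51.1 CPM. The part of any such cells in the levels of the mitosis genes was not tested.

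Late cell cycle genes are known to carry a short element near their start site, the cell cycle genes homology region (CHR), often beside CCAAT boxes, and MuvB complexes bind it. RefSeq promoter windows of 300 bases, from 250 before to 50 after the annotated start (build GRCm38.p6), were at hand for 49 of the 60 genes. The others are *Spc24*, *Ska1*, *Ccna2*, *Cdc25c*, *Aurkb*, *Incenp*, *Kif20a*, *Tpx2*, *Dlgap5*, *Smc4* and *Foxm1*. 1 gene from each of 6 role groups is shown to let the element be read in genes that were lower with eutherian CRX. Each sequence runs 5′ to 3′ on the strand of the gene and ends 50 bases after the start. Capitals mark the CHR hexamers (TTTGAA or TTCGAA, or their reverse complements) and the CCAAT boxes (CCAAT or ATTGG).

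*Cenpa*, chr5:30666767-30666935, plus strand: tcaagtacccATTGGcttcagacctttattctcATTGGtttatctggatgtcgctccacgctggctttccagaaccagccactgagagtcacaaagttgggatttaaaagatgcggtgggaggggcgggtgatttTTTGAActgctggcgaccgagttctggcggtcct
*Bub1*, chr2:127831810-127831959, minus strand: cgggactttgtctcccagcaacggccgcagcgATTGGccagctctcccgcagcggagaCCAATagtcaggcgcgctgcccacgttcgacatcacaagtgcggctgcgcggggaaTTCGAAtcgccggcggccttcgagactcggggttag
*Cdca3*, chr6:124830062-124830225, plus strand: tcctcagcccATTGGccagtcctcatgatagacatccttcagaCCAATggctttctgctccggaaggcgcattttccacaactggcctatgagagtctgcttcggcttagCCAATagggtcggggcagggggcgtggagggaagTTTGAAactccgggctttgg
*Cdca8*, chr4:124936868-124937017, minus strand: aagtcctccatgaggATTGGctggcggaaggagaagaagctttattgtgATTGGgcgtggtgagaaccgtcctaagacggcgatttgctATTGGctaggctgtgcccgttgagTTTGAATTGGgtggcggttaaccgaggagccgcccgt
*Prc1*, chr7:80294351-80294500, plus strand: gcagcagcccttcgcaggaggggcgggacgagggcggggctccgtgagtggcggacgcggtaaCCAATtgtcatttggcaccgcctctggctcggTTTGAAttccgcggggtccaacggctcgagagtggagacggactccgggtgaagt
*Kif23*, chr9:61946750-61946899, minus strand: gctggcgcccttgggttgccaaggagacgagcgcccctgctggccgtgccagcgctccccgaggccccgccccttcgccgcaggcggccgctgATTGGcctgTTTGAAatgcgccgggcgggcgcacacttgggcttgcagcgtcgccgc

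The first base of the hexamer lies at position 16 in *Cenpa*, 14 in *Bub1*, 30 in *Cdca3*, 13 in *Cdca8*, -5 in *Prc1* and 2 in *Kif23*, counted from the start site as 0. Of these 6 genes, *Cdca8* was the 1 not called with eutherian CRX. In *Cdca8* the hexamer and a CCAAT box on the other strand share a base.

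A CHR hexamer on either strand was present in the windows of 36 of the 49 genes (73.5%), and in 21.7% of the 27025 genes with a window. A CCAAT box was present in 34 of the 49 (69.4%) and in 41.1% of all genes, and both were present in 29 of the 49 (59.2%) and in 9.65% of all genes. An E2F element (TTTGGCGC, TTTGCCGC, TTTCGCGC or TTTCCCGC, either strand) was present in 4 of the 49 and in 2.60% of all genes. Some genes have more than 1 window, 53 in all for the 49 genes. A hexamer that began within 50 bases of the start was found in 35 of these 53 windows (66.0%) and in 5.31% of all 32851 windows. By role, the hexamer was found in 10 of 12 kinesin and spindle genes, in 4 of 4 cytokinesis genes and in 5 of 10 kinetochore genes. The 13 genes without it were *Nuf2*, *Cenpe*, *Cenph*, *Cenpi*, *Cenpk*, *Mad2l1*, *Pttg1*, *Ccnb1*, *Melk*, *Birc5*, *Kif18a*, *Nusap1* and *Ncaph*. They hold genes with large decreases, such as *Nuf2* and *Nusap1*, beside *Pttg1* and *Kif18a*, which were not called.

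**Figure D5:**
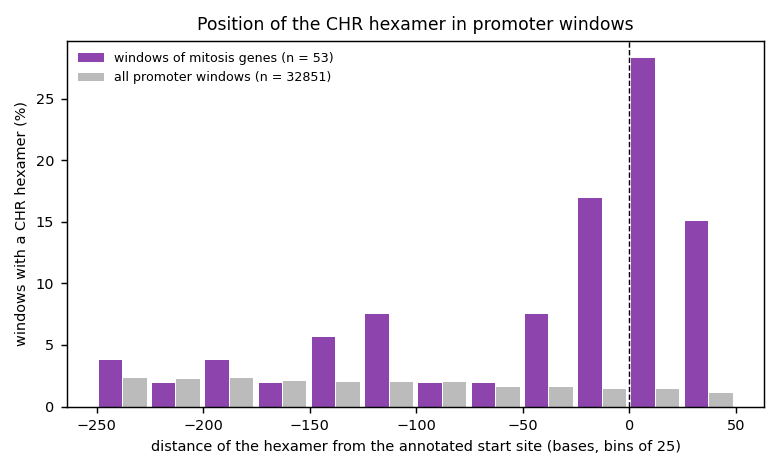
Share of promoter windows (vertical, percent) with a CHR hexamer whose first base lies in each bin of 25 bases (horizontal, distance from the annotated start site). Purple bars are the 53 windows of the mitosis genes and grey bars all 32851 windows. The purple bars are highest from 0 to 24 bases after the start, at 28.3%, where the grey bar is at 1.43%.

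With eutherian CRX, the median log2 fold change was -1.52 for genes with the hexamer and -1.27 for those without it, which is given as a description with no test. A match says that the letters are present in the window and nothing about what binds there.

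Some of the 60 genes cannot be counted cleanly. Of the 50-base windows of their transcripts, at most 5% were shared with transcripts of another gene in 50 of the 60. The 10 others were *Kif20a* (25.2%), *Ccnb1* (23.4%, mostly with a pseudogene), *Ube2c*, *Kif4*, *Cdc25c*, *Ncapg*, *Ccna2*, *Cdc20*, *Plk1* and *Prc1*. Exons of *Kif20a* overlap those of genes on the other strand over 38.4% of their bases, those of *Ncapg* over 20.0%, of *Ccna2* over 13.4% and of *Cenpk* over 10.3%. Since the sources do not state whether the counting used the strand, reads of these genes and of their neighbours cannot be told apart, and their values are uncertain to that extent.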

How the data were processed

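The RNA-seq data comprise 9 MEF libraries in 3 conditions of 3 replicates, grouped by the sample titles. The authors aligned paired reads with STAR to mm10 (GRCm38) and deposited raw counts per gene and library from featureCounts, not normalized and with replicates kept apart. The annotation release, the strand setting and the handling of reads with several alignments are not given in the sources used here. The 60 genes and all comparison lists were chosen with earlier results of these data known.

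Counts were analysed with edgeR 4.0.16 in R 4.3.3, with alternatives in DESeq2 1.42.0 and limma 3.58.1. Of 22068 genes, 3756 had no count, 14599 passed filterByExpr, and 10100 of these also reached the FPKM threshold (above 2 on average in some condition). FPKM was computed from the counts and the summed length of merged exons. The model (glmQLFit, glmQLFTest) held condition and replicate number, since the study describes paired sample preparation, although no source says that the numbers mark the pairs. CPM used the TMM-scaled library sizes of the genes tested, log2 CPM a prior count of 2, and standard errors were taken as the absolute log2 fold change over the root of F. Medians over all 60 genes are given without a test. Libraries of different conditions that share a number form 9 pairs, of which 8 had deviations from their group means that correlated above 0.1 across genes (lowest r = 0.0034, and 0.72 at most between different numbers), so the numbers are not shown to pair the libraries. Counts of replicates differed by far more than sampling noise (chi-square per degree of freedom at least 30.8), and each library was used as a replicate. A count of 0 allows up to 3 counts, for counting error only.

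Genes named are those called in any comparison, the most abundant of each role group, the 3 extremes of each comparison, and *Foxm1*, *Mki67* and *Nuf2*. Others, such as *Cenpf*, *Kif14* and *Kif18a*, were named after their values were seen. On simulated data with the means of the 10100 genes, the test for eutherian CRX recovered 65 of 100 genes lowered by a log2 fold change of 1 and 92 of 100 lowered by 2, with 12 false calls. The simulation took the spread of each gene from the blocked fit and put no difference between replicate numbers. The real replicates differed, so this recovery is not the power of the test on these data. RefSeq promoter windows were searched for exact motifs on both strands. Alternatives were no block, 2 other scalings, 2 other tests, 2 other filters, only the 6 libraries compared, a prior count of 0.5, and each library left out. The same for all 60 genes, without the block and with each library left out (and without a filter for the 14 genes tested only there), was added after the values had been seen.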

Additional observations from a re-analysis of the deposited data

How the results depend on the processing

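The medians over all 60 genes kept their direction under each scaling and prior count run, and the numbers of called genes did not keep their size. Of the genes called lower with eutherian CRX (26 of 46), 0 were called without the replicate block and 0 with only the 6 libraries compared, 43 by DESeq2 and 45 by limma voom, all 26 of the first among them in each of the last 2. Relative-log-expression factors called 26, upper-quartile scaling 25, filterByExpr alone 33 and no filter 36. For both orthologues averaged (26 of 46) the number was 0 without the block, 43 by DESeq2 and 44 by limma voom. For metatherian CRX against control (0 of 46) DESeq2 called 29 and limma voom 40, and for metatherian against eutherian CRX (0 of 46) they called 18 and 37. Over all genes and in either direction, DESeq2 called 333 and limma voom 789 with eutherian CRX. With metatherian CRX they called 1004 and 4236. Such totals are not given here for the average or between the orthologues. Over all 60 genes, the 33 called with eutherian CRX and the 35 called in the average both became 0 without the block. With each library left out, the number called ranged from 0 to 32 for eutherian CRX, from 0 to 20 for metatherian CRX, from 0 to 32 for the average and from 0 to 7 between the orthologues, and over all 60 genes from 0 to 40 for eutherian CRX and from 0 to 46 for the average. A fit without a library has fewer residual degrees of freedom, and why the fits without metatherian CRX replicate 3 called more was not tested. The median over all 60 genes then ranged from -1.72 to -1.16 for eutherian CRX, from -0.95 to -0.46 for metatherian CRX, from -1.28 to -0.72 for the average and from 0.40 to 0.85 between the orthologues.

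The replicate block was kept because of the study's methods. Without it the median log2 fold change of the 46 genes was -1.44 for eutherian CRX, and the smallest adjusted p from edgeR was 0.073.

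For single genes, the stricter fit was repeated for 102 differences in 46 genes (both comparisons with control for each gene, and the values given for the average and between the orthologues). Of these alternative values, 1284 kept direction and side of the threshold, 268 fell short of it, 168 newly passed it, and 10 changed direction. For the 14 genes tested only in the fit of all 60, which was repeated without the block, without a filter and with each library left out, 253 kept both, 49 fell short, 13 newly passed and 4 changed direction. The changes of direction are in genes whose difference was near 0. *Spc25* with metatherian CRX was 0.0060 with filterByExpr alone, 0.014 with no filter and -0.11 to 0.13 with a library left out. *Kif18a* with metatherian CRX was 0.0035 without the replicate block, 0.0049 with no filter and -0.099 to 0.12 with a library left out. *Smc4* between the orthologues was -0.030 with upper-quartile scaling, -0.14 with limma voom and -0.26 to 0.25 with a library left out, and *Spc24* between the orthologues was -0.43 to 0.16 with a library left out. No other scaling moved the median of all genes by more than 0.034.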
